A study of Mus musculus with 155 samples.

Results

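The genes described here encode enzymes of cholesterol synthesis, and they were followed in mouse embryonic stem cells (ESCs) and in 2 kinds of cells differentiated from them. They were chosen by name as targets of SREBP2 in this pathway: Hmgcs1, Mvd, Idi1, Fdps, Fdft1, Sqle, Lss and Cyp51. Of these 8 genes, 7 were matched among the 55471 genes of each count table, and Hmgcs1 was not analysed here. Cells build cholesterol from acetyl-CoA through mevalonate, isoprenoid diphosphates, squalene and the first sterol, lanosterol. SREBP2, a membrane-bound transcription factor, is held in the endoplasmic reticulum while sterols are plentiful and is cut free to switch these genes on when sterols run low. Myelin is rich in cholesterol, which cells of the oligodendrocyte lineage mostly make themselves.

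The study asked how mutants of the histone variant H3.3 act early after they are induced. KH2 mouse ESC lines carried 1 extra, Dox-inducible copy of SNAP-HA-tagged H3.3, either wild type (WT), K27M or K27L. A further set of cells, named GSK in the labels, carried the WT transgene and was given the PRC2 inhibitor GSK343. Every library, WT included, thus came from Dox-treated cells with an H3.3 transgene, and the karyotype of the study's clones showed a possible duplication of chromosome 8. ESCs, grown with LIF, 2 kinase inhibitors and serum, were sampled at 4, 8, 24 and 72 h of Dox. Each line, and the GSK-treated cells, had 2 replicates at each time. Cells given retinoic acid (RA) without LIF and the inhibitors are represented by 1 library each of WT, K27M and K27L at 24 and at 72 h. For the 72 h libraries, the paper states that Dox was added 24 h after RA began. How long the 24 h libraries had been in RA is not stated, so hours of Dox and of RA may have changed together. Cells taken through embryoid bodies towards oligodendrocyte progenitor cells (OPCs) are represented by 1 library each of WT and K27M at the same times. The embryoid bodies were also given RA, together with purmorphamine, and their cells were then kept in OPC medium for up to several weeks. Medium therefore changed together with cell state, and their parts cannot be told apart.

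The counts per library ranged from 68378 to 21161392 in ESCs, from 2239137 to 22269533 in RA cells and from 7499258 to 12387113 in OPC cells. The lowest total belonged to K27L at 72 h, replicate 2, where Mvd rested on 1 count, and results with this library are given with and without it. Levels are CPM, counts scaled to a common library total, after TMM, a correction for differences in library composition. The ESC marker genes summed to between 1800 and 4500.2 CPM in ESCs, to at most 120 CPM in RA cells and to between 1.39 and 15.8 CPM in OPC cells. In the 4 OPC libraries, the lineage factors Olig1 (149 to 674 CPM) and Olig2 (267 to 1016 CPM) were abundant, and Nkx2-2 lay between 36.4 and 120.03 CPM and Cspg4 between 8.39 and 98.8 CPM. Sox10 lay between 0.141 and 3.28 CPM and Pdgfra between 0.564 and 22.6 CPM, and the myelin genes Mag (0 in all 4 libraries) and Mog (at most 0.0994 CPM) were absent or nearly so. The astrocyte and radial glia transporter Slc1a3 stood at 729 to 1177 CPM, so the name OPC is used as the label and not as a measured purity. In bulk RNA, fewer cells of a type and less RNA per cell cannot be told apart.

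Positions are given on NCBIM37, the build of the alignment (mm9). Mvd (ENSMUSG00000006517.5), mevalonate diphosphate decarboxylase, makes isopentenyl diphosphate and lies on the minus strand at chr8:124957496-124967322. Idi1, which interconverts the isomers of that isoprenoid unit, lies on the plus strand at chr13:8884852-8891641. Fdps, farnesyl diphosphate synthase, lies on the minus strand at chr3:88897514-88905881. Fdft1, squalene synthase, lies on the minus strand at chr14:63763990-63796630, and Sqle, squalene epoxidase, on the plus strand at chr15:59146632-59162747. Lss, which closes the ring to lanosterol, lies on the plus strand at chr10:75994333-76019883, and Cyp51, which removes a methyl group from lanosterol, on the minus strand at chr5:4081145-4104746.

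Some members have near-identical copies elsewhere in the genome, to which reads could also align. Idi1 had 3 such copies, the closest at chr2:53553399-53555892 with 99.32% identity, and 84.59% of the 2817 windows of 50 bases along its transcript occurred unchanged in a copy. For Fdps there were 2 copies, the closer at chr10:93241356-93242512 with 98.79% identity, and 61.32% of 1184 windows occurred unchanged in a copy. Fdft1 had 1 copy at chr14:19363865-19365475, with 97.4% identity over 56.29% of the transcript, and 22.16% of its windows occurred there unchanged. No copy was found for Mvd, Sqle, Lss or Cyp51. How reads that align equally well to a copy were counted is not given in the sources used here, so the values of Idi1, Fdps and, in part, Fdft1 are uncertain.

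Because SREBP2 acts at promoters together with factors that bind CCAAT boxes (NF-Y) and GC boxes (Sp1), the upstream sequences of the members with a promoter entry in RefSeq are shown. These are Cyp51, Mvd, Lss and Idi1, and also Hmgcs1, whose expression was not analysed here, and there was no entry for Fdps, Fdft1 or Sqle. Each sequence runs 5′ to 3′ over the 250 bases before the annotated start in GRCm38.p6, and capitals mark the CCAAT and GGGCGG motifs on either strand and TCACNCCAC, the letters of the classical sterol regulatory element, so that ATTGG and CCGCCC are the same motifs read on the other strand. The regions are chr5:4104698-4104947 on the minus strand for Cyp51, chr8:122443423-122443672 on the minus strand for Mvd, chr10:76531355-76531604 on the plus strand for Lss, chr13:8885356-8885605 on the plus strand for Idi1 and chr13:119690101-119690350 on the plus strand for Hmgcs1.
Cyp51: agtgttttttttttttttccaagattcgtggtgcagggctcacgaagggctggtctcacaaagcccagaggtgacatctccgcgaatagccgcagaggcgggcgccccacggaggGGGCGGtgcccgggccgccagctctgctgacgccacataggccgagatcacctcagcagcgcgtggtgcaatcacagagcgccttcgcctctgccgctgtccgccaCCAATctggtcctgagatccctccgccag
Mvd: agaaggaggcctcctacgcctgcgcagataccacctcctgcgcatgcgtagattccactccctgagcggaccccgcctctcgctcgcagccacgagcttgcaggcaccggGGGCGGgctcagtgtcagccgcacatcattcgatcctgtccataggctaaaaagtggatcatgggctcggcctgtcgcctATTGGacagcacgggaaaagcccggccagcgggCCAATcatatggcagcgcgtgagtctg
Lss: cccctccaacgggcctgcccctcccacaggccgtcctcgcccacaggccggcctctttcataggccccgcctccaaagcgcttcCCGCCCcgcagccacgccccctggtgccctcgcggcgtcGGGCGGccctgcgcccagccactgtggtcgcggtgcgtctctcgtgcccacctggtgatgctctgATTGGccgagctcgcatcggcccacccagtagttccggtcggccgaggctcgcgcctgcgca
Idi1: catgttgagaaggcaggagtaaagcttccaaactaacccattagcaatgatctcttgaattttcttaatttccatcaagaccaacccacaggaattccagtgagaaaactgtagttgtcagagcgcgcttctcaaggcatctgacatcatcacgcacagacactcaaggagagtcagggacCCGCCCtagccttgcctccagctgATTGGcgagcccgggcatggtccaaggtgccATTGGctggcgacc
Hmgcs1: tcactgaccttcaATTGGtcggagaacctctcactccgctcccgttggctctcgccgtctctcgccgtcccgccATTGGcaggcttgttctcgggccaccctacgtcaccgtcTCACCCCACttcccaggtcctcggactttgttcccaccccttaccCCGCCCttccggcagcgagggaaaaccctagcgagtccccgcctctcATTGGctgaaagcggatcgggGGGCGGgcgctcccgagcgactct
CCAAT was found in 4 of the 4 promoters of the analysed members and in 33.8% of all 32851 promoters of the same length, and GGGCGG in 4 of 4 and in 32.7%. The nearest CCAAT motif began 29 bases before the start in Cyp51, 27 in Mvd, 62 in Lss and 14 in Idi1. TCACNCCAC was in 0 of these 4 promoters on either strand and in 1.05% of all promoters. The promoter of Hmgcs1 held all 3 motifs, with TCACNCCAC beginning 137 bases before the start. Letter matches are descriptions and not binding sites, and none of the 3 motifs overlapped another in these windows.

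In ESCs, the members kept nearly the same levels with K27M as with WT. Over 8 libraries of each line, Mvd had a lowest, median and highest level of 56.1, 71.4 and 82.5 CPM with WT and of 58.3, 66.5 and 80.6 CPM with K27M. Cyp51 ran from 119 through a median of 156 to 225 CPM with WT and from 130 through 151 to 194 CPM with K27M. Sqle, the enzyme that puts oxygen into squalene, ran from 129 through 163 to 202 CPM with WT and from 138 through 158 to 178 CPM with K27M. The groups overlapped over most of their range, and the fitted log2 differences of the 7 members lay between -0.10 and 0.09. By edgeR's quasi-likelihood test, 0 of 7 members passed an adjusted p of 0.05, as against 0.0143% of all genes (2 of 14012), and 0 passed by DESeq2. At an unadjusted p under 0.05 the test took 1619 genes and 0 members. Replicates of the same number deviated together in WT and K27M, and a fit of the 32 libraries that blocks on replicate number called 32 genes and 0 members.

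With K27L in ESCs, Mvd fell and no other member passed the test. Mvd stood at a lowest, median and highest level of 14.2, 48.8 and 64.0 CPM with K27L, against 56.1, 71.4 and 82.5 CPM with WT, with some overlap. The log2 difference was -0.48 (SE 0.12, n = 8 and 8 libraries, edgeR adjusted p = 0.0116), and without the shallow K27L library it was -0.47 (adjusted p = 0.0126). Lower calls covered 5.07% of all genes, beside 1 of 7 members. When the fit held only the libraries of these 2 lines, Mvd was at -0.50 with an adjusted p of 0.0643. Mvd lies on chromosome 8, which the study left out for the possible duplication, and its test comes from a fit that kept that chromosome. Fdps, which joins isoprenoid units to farnesyl diphosphate, had a log2 difference of -0.35 (adjusted p = 0.0915), and Cyp51 one of -0.24 (adjusted p = 0.215). Fdft1, the enzyme that commits farnesyl diphosphate to sterols, was at 0.14 (adjusted p = 0.396).

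**Figure D1:**
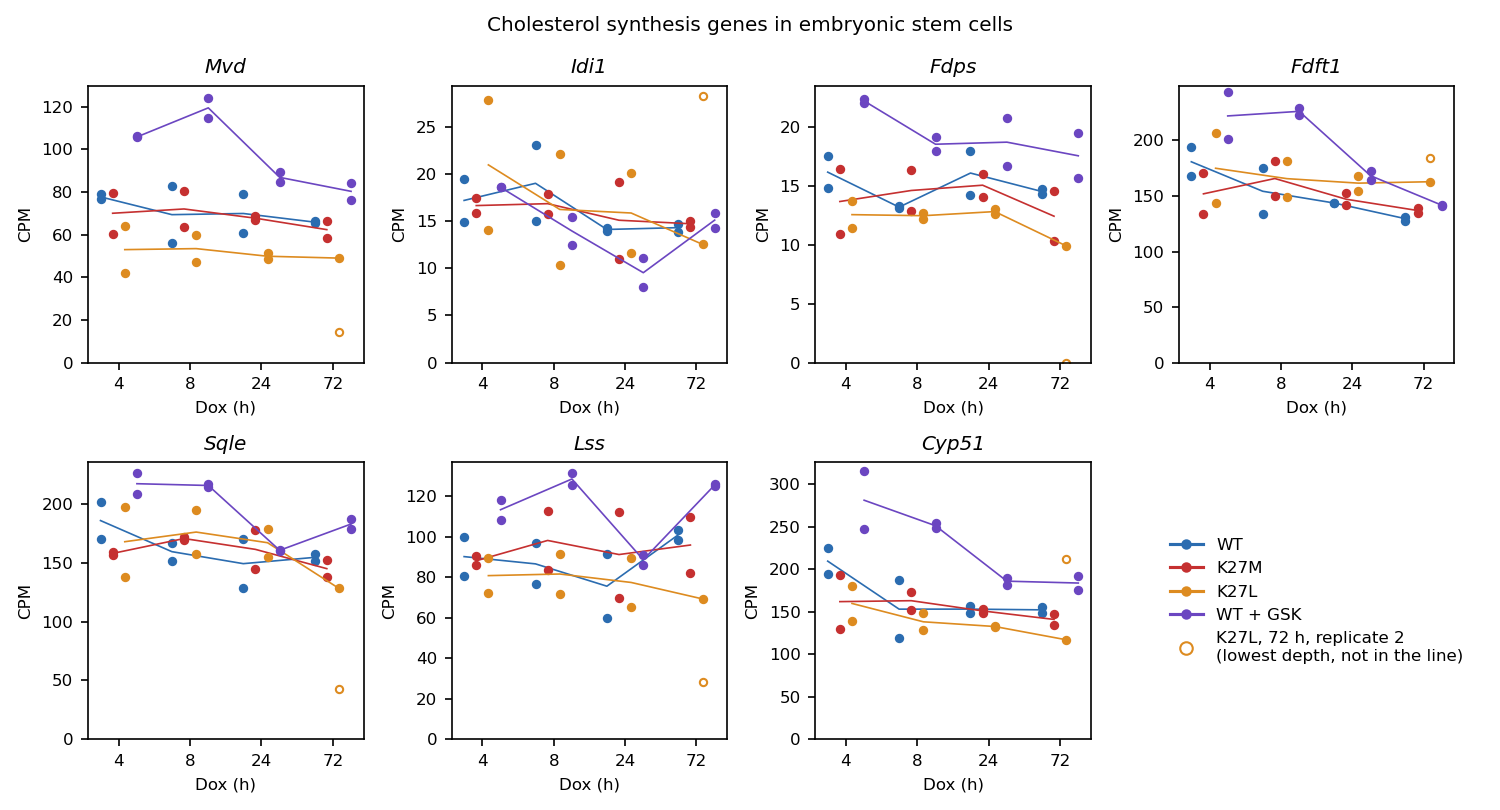
Levels of the 7 cholesterol synthesis genes in 32 ESC libraries. Each panel is 1 gene, the horizontal axis is the hours of Dox and the vertical axis is CPM. Each point is 1 library coloured by line, with GSK-treated WT cells in a colour of their own. The GSK points at 4 and 8 h stand above the WT points for every gene but Idi1, and the K27L point at 72 h with Mvd at 14.2 CPM is the library of 68378 counts.

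In GSK-treated cells the members other than Idi1 were higher at 4 and 8 h in every library, by amounts that did not pass the correction over all genes. Mvd was at 106, 105, 124 and 115 CPM in the 4 GSK libraries against 76.5, 78.8, 82.5 and 56.1 CPM in the 4 WT libraries, in the order 4 h replicates 1 and 2, then 8 h replicates 1 and 2. Cyp51 was at 247, 316, 248 and 254 CPM with GSK against 194, 225, 187 and 119 CPM with WT. Fdft1 was at 201, 243, 229 and 223 CPM with GSK against 168, 194, 175 and 133 CPM with WT. All 4 GSK libraries lay above all 4 WT libraries for each of these 3 enzymes, which act on mevalonate diphosphate, lanosterol and farnesyl diphosphate. Sqle was at 209, 227, 217 and 215 CPM with GSK against 170.4, 202, 152 and 168 CPM with WT. Lss, the cyclase that forms lanosterol, was at 118, 108, 132 and 126 CPM with GSK against 80.6, 99.8, 76.4 and 96.8 CPM with WT. Fdps was at 22.4, 22.1, 19.2 and 17.9 CPM with GSK against 14.8, 17.6, 13.3 and 13.1 CPM with WT. Sqle, Lss and Fdps likewise did not overlap between GSK and WT. The GSK library of 8 h, replicate 2, had 1247934 counts in all, and Fdps rested on 23 counts there. Idi1 overlapped, at 18.6, 18.6, 15.5 and 12.5 CPM with GSK and 14.9, 19.5, 15.0 and 23.1 CPM with WT.

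In all, 6 of 7 members had every GSK library above every WT library, as did 1.22% of all genes. The log2 differences were 0.64 for Mvd (SE 0.16), 0.50 for Fdps (SE 0.17), 0.45 for Fdft1 (SE 0.13), 0.35 for Sqle (SE 0.15), 0.47 for Lss (SE 0.18), 0.59 for Cyp51 (SE 0.15) and -0.13 for Idi1 (SE 0.26). The adjusted p of edgeR lay between 0.892 and 0.949 for all 7, so that 0 of 7 members passed, as did 0% of all genes, and DESeq2 also called 0 genes. At an unadjusted p under 0.05 there were 6 of 7 members and 4.92% of all genes (690 of 14012). The pooling of 4 and 8 h was added after the values had been seen. At 24 and 72 h the same 6 members had log2 differences between 0.18 and 0.30 and Idi1 one of -0.24, with 0 past the correction and 0 at an unadjusted p under 0.05. The change of the difference between the early and late times was tested for each member and 0 of 7 passed. The other cholesterol synthesis enzymes had a median log2 difference of 0.35 at 4 and 8 h, beside 0.47 for the members and 0.00 for all genes, while the fatty acid synthesis list (-0.07), the SREBP regulation and sterol transport list (-0.01) and the list of LXR and efflux genes (0.05) had medians near 0. In none of these lists did a gene pass the correction by edgeR. Genes with at most 2140 bases of exon had a median of 0.15 and genes with at least 5517 bases one of -0.18 in this comparison, and the part of length in the members' values was not tested.

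Across the ESC time course, Fdft1 and Cyp51 fell between 4 and 72 h of Dox on average over WT, K27M, K27L and GSK. Fdft1 ran from 133 through a median of 182 to 243 CPM at 4 h and from 128 through 140.1 to 184 CPM at 72 h (log2 difference -0.32, SE 0.10, n = 8 and 8, edgeR adjusted p = 0.0187). Cyp51 ran from 130.2 through 194 to 316 CPM at 4 h and from 117 through 152 to 213 CPM at 72 h (log2 difference -0.36, SE 0.11, adjusted p = 0.0234). The times overlapped for both genes, and the 2 of 7 members stand beside 12.8% of all genes called lower. Sqle was at -0.29 (adjusted p = 0.0620) and Lss at 0.04 (adjusted p = 0.859). Mean Fdft1 went from 222 to 142 CPM with GSK, from 181 to 130 CPM with WT and from 152 to 137 CPM with K27M. Mean Cyp51 went from 281 to 184 CPM with GSK, from 210 to 152 CPM with WT and from 162 to 141 CPM with K27M. With K27L, means that include the shallow library at 72 h went from 175 to 174 CPM for Fdft1 and from 160 to 165 CPM for Cyp51. In that library Fdft1 rested on 13 counts and Cyp51 on 15. In K27L replicate 1 at 72 h, Fdft1 was at 163 CPM and Cyp51 at 117 CPM. The shallow K27L library held the highest 72 h value of both genes. Without the shallow K27L library, Fdft1 was at -0.33 (adjusted p = 0.0203) and Cyp51 at -0.42 (adjusted p = 0.0101). With no filter on low counts the adjusted p was 0.0968 for Fdft1 and 0.0508 for Cyp51. Genes with at most 2140 bases of exon had a median of -0.25 and those with at least 5517 bases one of 0.27, and the part of length was not tested. Of the 12 other cholesterol synthesis enzymes 0 rose and 2 fell, Acat2 (-0.58) and Tm7sf2 (-0.53), and of 10 fatty acid synthesis genes 1 rose, Acaca (0.59), and 0 fell. Of 12 genes of SREBP regulation and sterol transport, Soat1 (0.84) and Npc1 (0.52) rose and Insig1 (-0.66), which holds SREBP in the endoplasmic reticulum, and Npc2 (-0.57) fell. Of the 6 tested LXR and efflux genes, Abca1 (1.46), the cholesterol efflux pump, and Mylip (0.38) rose and Nr1h2 (-0.47) and Apoe (-0.36) fell.

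Across ESC libraries, the levels of several members were correlated. Over the 31 libraries with at least 1000000 counts, Pearson's r of log2 CPM was 0.888 between Mvd and Cyp51, 0.843 between Mvd and Fdps and 0.782 between Fdft1 and Cyp51. Over the pairs without Idi1, r ranged from 0.268 (Fdft1 and Lss) to 0.888, and over those with Idi1 from -0.07 to 0.46. The genes most like the mean of the members, by r over the same libraries among 13324 genes, included Aacs (0.871), which activates acetoacetate for lipid synthesis, the sterol enzymes Sc4mol (0.829), Sc5d (0.811) and Dhcr7 (0.749), and Insig1 (0.776). Rdh11 (0.823), Vps4a (0.750) and Fam189a2 (0.726) were also among the 10 genes most alike. The median r over all genes was -0.02. These values are descriptions, since the libraries share lines, times and treatment and the genes share each library.

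In RA cells, 6 of 7 members differed between 24 and 72 h of Dox, in both directions. At 24 h and then 72 h, Lss was at 77.2 and 26.6 CPM in WT, at 149.6 and 17.6 CPM in K27M and at 64.8 and 16.4 CPM in K27L. Sqle was at 121 and 58.5 CPM in WT, at 208 and 79.6 CPM in K27M and at 106 and 40.9 CPM in K27L. Mvd was at 45.9 and 138 CPM in WT, at 89.6 and 123 CPM in K27M and at 36.4 and 72.5 CPM in K27L. Lss and Sqle were lower at 72 h in each of the 3 lines, without overlap between the times, whereas Mvd was higher in each line, with overlap. Fdft1 was at 81.5 and 52.0 CPM in WT, at 134 and 65.2 CPM in K27M and at 107 and 66.8 CPM in K27L. Idi1 was at 9.76 and 0 CPM in WT, at 16.6 and 2.06 CPM in K27M and at 4.83 and 1.44 CPM in K27L. Fdps was at 6.51 and 20.6 CPM in WT, at 16.6 and 20.8 CPM in K27M and at 7.93 and 11.2 CPM in K27L. Fdft1 and Idi1 were thus lower at 72 h in each line, also without overlap, and Fdps was higher in each line, with overlap. All 72 h libraries lay below all 24 h libraries for 4 of 7 members and 41.4% of all genes. They lay above for 0 of 7 members and 25.1% of all genes. Cyp51 went from 149 to 205 CPM in WT, from 299 to 183 CPM in K27M and from 145 to 134 CPM in K27L.

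Between 72 and 24 h (3 against 3 libraries, with line as a term), Mvd rose by 1.24 (SE 0.19, edgeR adjusted p = 0.000108) and Fdps by 0.99 (SE 0.26, adjusted p = 0.00468) on the log2 scale. Lss fell by 1.98 (SE 0.24, adjusted p = 1.31e-05), Sqle fell by 1.03 (SE 0.14, adjusted p = 2.92e-05), Idi1 fell by 2.77 (SE 0.48, adjusted p = 0.000247) and Fdft1 fell by 0.56 (SE 0.14, adjusted p = 0.00332). Cyp51 had a difference of 0.11 (adjusted p = 0.610). The 2 of 7 members called higher stand beside 33.3% of all genes and the 4 called lower beside 36.2%, so that neither share was far from the background. Past both the adjusted p and a 2-fold change there were 4 of 7 members and 42.9% of all genes. Leaving out K27M at 24 h or at 72 h ended the call of Fdft1, at an adjusted p of 0.0814 and 0.0943.

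Gene length moved with this comparison. Genes with at most 2392 bases of exon had a median log2 difference of 0.67 and genes with at least 5782 bases one of -0.53. Mvd (1761 bases) and Fdps (1233 bases), which rose, belong to the short class, and Lss (10787 bases), which fell, to the long one. Idi1 (2866 bases), Fdft1 (2860 bases) and Sqle (5546 bases), which also fell, lie between these classes, as does Cyp51 (4286 bases), which did not pass. These lengths join all annotated exons of a gene, and the longest protein-coding transcript has 4667 bases for Lss and 2758 for Sqle. Total counts were 2239137 to 3268238 at 72 h and 5050115 to 22269533 at 24 h, and the labels do not say which library kit each sample had. Without overlap, neural progenitor markers summed to 144 to 409 CPM at 24 h and to 43.8 to 97.2 CPM at 72 h, fibroblast markers to 234 to 380.4 and to 44.6 to 134 CPM, and those of myelinating oligodendrocytes to 28.1 to 39.6 and to 15.3 to 20.3 CPM. With overlap, ESC markers summed to 40.5 to 120.5 CPM at 24 h and to at most 44.0 CPM at 72 h, oligodendrocyte progenitor markers to 95.1 to 312 and to 57.0 to 168 CPM, extraembryonic endoderm markers to 292 to 1303 and to 412 to 1128 CPM, astrocyte markers to 24.4 to 35.8 and to 32.8 to 57.7 CPM, and neuronal markers to 13.8 to 27.8 and to 13.5 to 44.8 CPM. The part of length, depth, time in RA and cell types in these differences was not tested. Of the other 12 cholesterol synthesis enzymes 3 rose and 4 fell, among them Dhcr7 (-2.32), a reductase of the last steps, and Ebp (1.58), the sterol isomerase. Among 10 fatty acid synthesis genes 0 rose and 8 fell, with Scd1, a desaturase, at -1.68.

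Between lines in RA cells no member passed the test. The log2 differences from WT were 0.12 to 0.89 with K27M and -0.79 to 0.35 with K27L (2 against 2 libraries each, 24 and 72 h together), and 0 of 7 members passed by edgeR in either comparison, as did 0% of all genes in each. At an unadjusted p under 0.05 there were 14 genes with K27M and 185 with K27L, and DESeq2 called 0 and 5 genes. With the Dox time as a block the counts of genes were 2 and 849, again with 0 members.

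**Figure D2:**
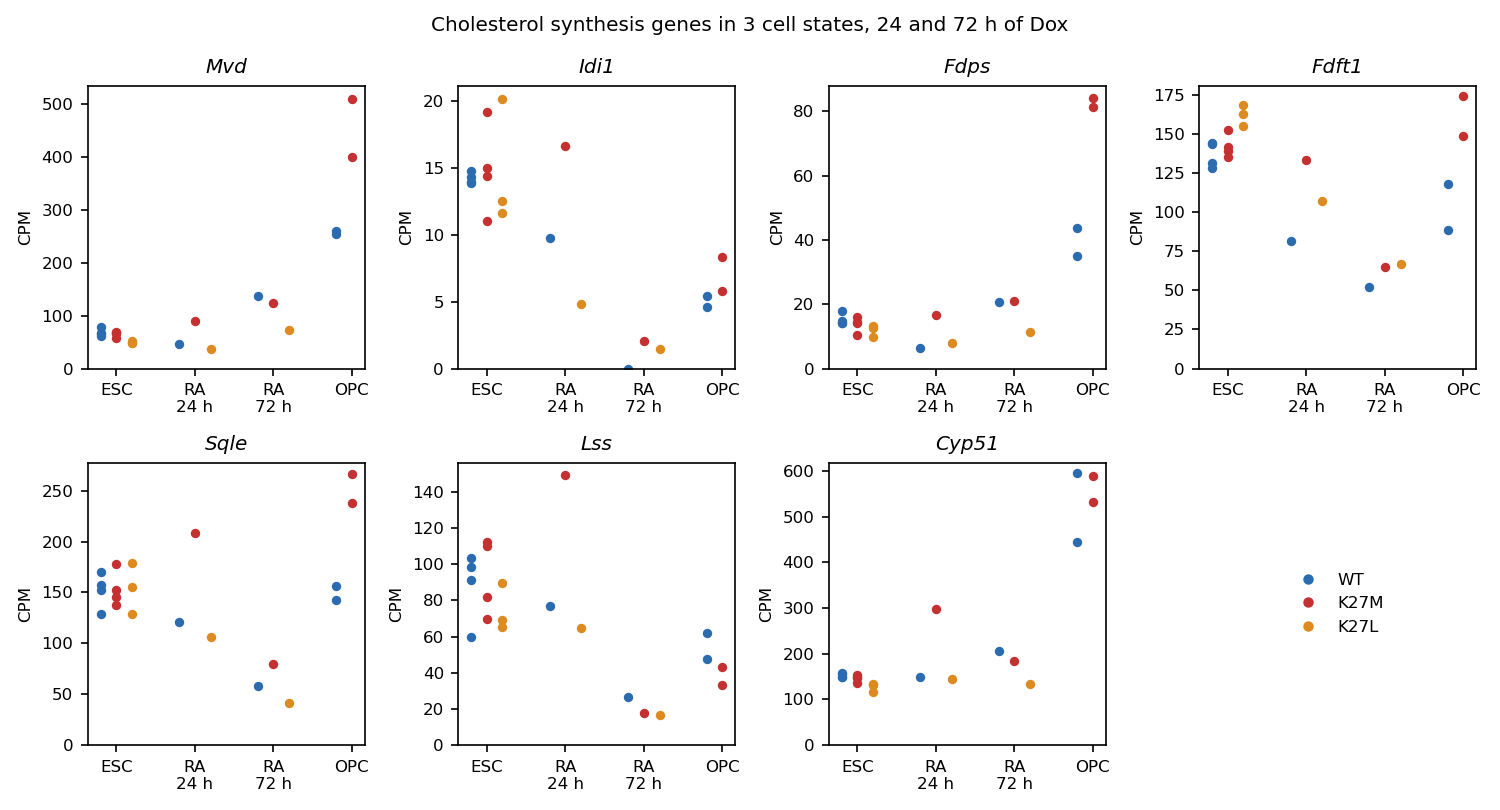
Levels of the 7 genes in 3 cell states at 24 and 72 h of Dox. The vertical axis is CPM, each point is 1 library coloured by line, RA libraries are split by time, and the ESC library of 68378 counts is left out. Mvd, Fdps and Cyp51 were highest in the OPC libraries, and Lss and Idi1 were lowest in the RA libraries of 72 h.

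In OPC cells, several of these enzymes were higher with K27M than with WT, and Lss was lower. Fdps was at 43.6 CPM in WT at 24 h and 35.0 CPM at 72 h, and at 84.0 and 81.2 CPM in K27M. Mvd was at 253 and 259 CPM in WT and at 509.6 and 400.1 CPM in K27M. Sqle was at 143 and 156 CPM in WT and at 266 and 238 CPM in K27M. Both K27M libraries thus exceeded both WT libraries for the decarboxylase, the prenyl synthase and the epoxidase. Fdft1 was at 88.7 and 118 CPM in WT and at 148 and 174 CPM in K27M. Lss was at 47.6 and 62.1 CPM in WT and at 33.3 and 43.0 CPM in K27M, the only member whose K27M libraries both lay below WT. Cyp51 was at 446 and 595 CPM in WT and at 531 and 588 CPM in K27M, overlapping. Idi1, at 5.39 and 4.57 CPM in WT and 5.78 and 8.32 CPM in K27M, did not overlap and was low in both.

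By edgeR, Fdps rose by 1.05 (SE 0.15, adjusted p = 0.000171), Mvd by 0.81 (SE 0.15, adjusted p = 0.000994), Sqle by 0.73 (SE 0.13, adjusted p = 0.000904) and Fdft1 by 0.62 (SE 0.16, adjusted p = 0.00840) on the log2 scale with K27M. Lss fell by 0.55 (SE 0.19, adjusted p = 0.0301). Idi1 was at 0.48 (SE 0.29, adjusted p = 0.191) and Cyp51 at 0.08 (SE 0.16, adjusted p = 0.700). Each line had 2 libraries, 1 of each Dox time, which stand in for replicates. The background was high, with 25% of all genes called higher and 26.5% called lower, beside 4 and 1 of 7 members. Only Fdps also passed the 2-fold threshold, as did 27.9% of all genes. Both K27M libraries lay above both WT libraries for 5 of 7 members and 39% of all genes, and below for 1 of 7 members and 37.6% of all genes. Without WT at 24 h, Fdft1 was at 0.41 (adjusted p = 0.0884), and Lss was at -0.33 (adjusted p = 0.234) without WT at 72 h and at -0.38 (adjusted p = 0.124) without K27M at 24 h.

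Genes of the rest of the pathway and of related lists also differed between these 4 libraries. Of 12 other cholesterol synthesis enzymes, 8 rose and 0 fell, with a median of 0.69 beside 0.62 for the members and 0.00 for all genes. Dhcr7, a reductase of the last steps, rose from 16.3 and 16.9 CPM in WT to 45.8 and 47.3 CPM in K27M (log2 difference 1.46). Acat2, which condenses acetyl-CoA at the head of the pathway, rose by 1.29, and Tm7sf2, a sterol reductase, by 1.36. Of 10 fatty acid synthesis genes, also SREBP targets, 8 rose and 0 fell, with Fasn between 234 and 294 CPM in WT and between 471 and 540.5 CPM in K27M (log2 difference 0.91). Among 12 genes of SREBP regulation and sterol transport, 6 rose and 2 fell, with Insig1 at 0.89, Srebf1 at 0.64 and Lpin1, a phosphatidate phosphatase, at -0.92. Of the 8 tested genes of the LXR and efflux list, whose members dispose of sterol, 2 rose and 4 fell. Abca1 went from 50.2 and 53.5 CPM to 14.8 and 19.1 CPM (log2 difference -1.63), and Apoe, a lipid carrier, from between 22.1 and 39.2 CPM to between 7.05 and 10.7 CPM (log2 difference -1.80).

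The levels of cell type markers differed between the libraries of these lines as well, and were not tested. The oligodendrocyte progenitor list of 6 genes summed to 535 and 500.3 CPM in WT and to 1709 and 1910.2 CPM in K27M. The fibroblast list of 7 genes summed to 552 and 599 CPM in WT and to 27.5 and 23.8 CPM in K27M. Neural progenitor markers summed to 239.8 and 241 CPM in WT and to 336 and 334 CPM in K27M, neuronal markers to 186 and 153 against 236 and 312 CPM, and astrocyte markers to 822 and 811 against 892 and 1221 CPM. Markers of extraembryonic endoderm summed to 57.2 and 73.2 CPM in WT and to 17.9 and 14.4 CPM in K27M, ESC markers to 1.97 and 1.39 against 15.8 and 14.9 CPM, and those of myelinating oligodendrocytes to 25.7 and 22.0 against 31.3 and 32.6 CPM. Their part in the members' differences was not tested.

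**Figure D3:**
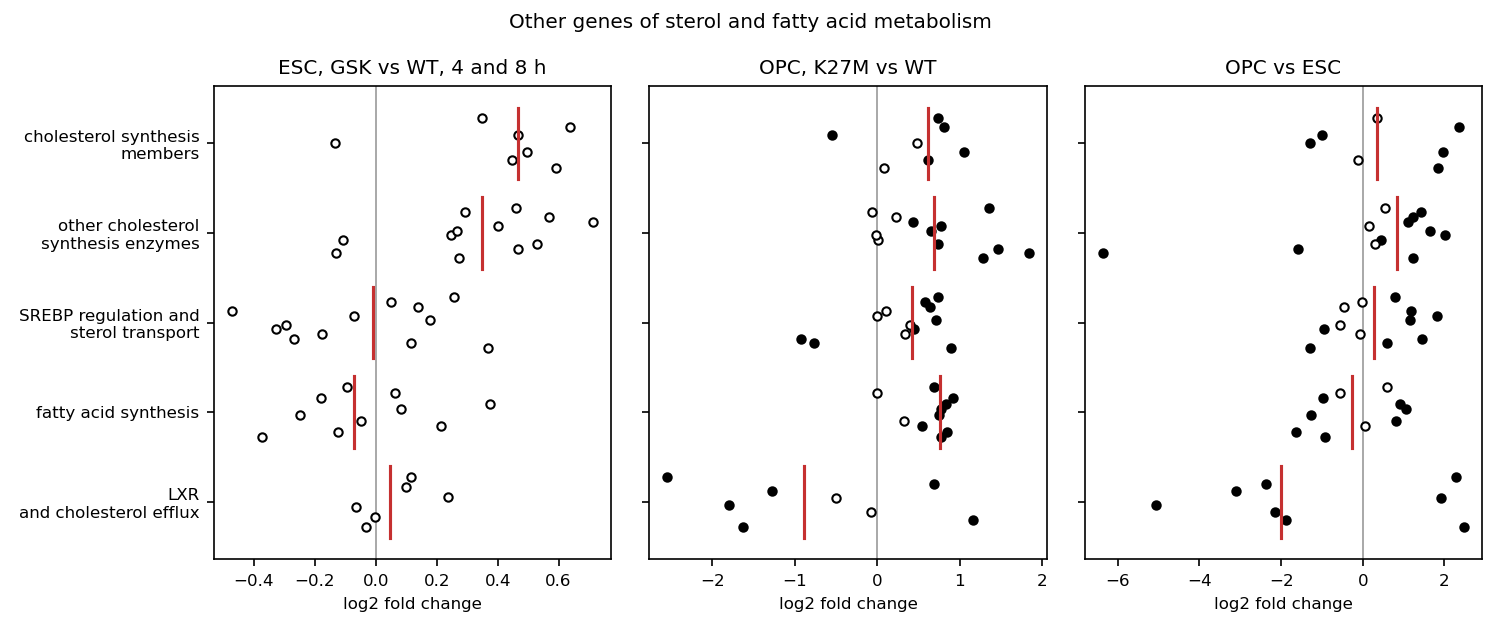
Log2 differences of the 7 genes and of 4 other lists in 3 comparisons. Each point is 1 tested gene, the horizontal axis is the log2 difference, filled points passed an adjusted p of 0.05 by edgeR, and the red line is the list's median. With GSK at 4 and 8 h no point is filled and the members' median is 0.47, and with K27M in OPC cells the members' median is 0.62 and that of the LXR and efflux list -0.89.

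OPC cells stood apart from ESCs most in Cyp51, Mvd and Fdps. Cyp51 lay between 446 and 595 CPM in the 4 OPC libraries and between 135 and 157 CPM in the 8 ESC libraries of the same lines and times. Mvd lay between 253 and 509.6 CPM in OPC cells and between 58.3 and 79.1 CPM in ESCs. Fdps lay between 35.0 and 84.0 CPM in OPC cells and between 10.3 and 18.0 CPM in ESCs. The states did not overlap for these 3 enzymes, whose log2 differences were 1.85 for Cyp51 (SE 0.16, edgeR adjusted p = 9.40e-09), 2.35 for Mvd (SE 0.24, adjusted p = 5.52e-08) and 1.96 for Fdps (SE 0.24, adjusted p = 6.23e-07). Idi1, at 4.57 to 8.32 CPM in OPC cells and 11.03 to 19.2 CPM in ESCs, had a difference of -1.30 (SE 0.52, adjusted p = 0.0290). Lss, at 33.3 to 62.1 CPM in OPC cells and 59.8 to 112 CPM in ESCs, had one of -0.99 (SE 0.44, adjusted p = 0.0449). Sqle was at 0.34 (adjusted p = 0.287) and Fdft1 at -0.12 (adjusted p = 0.582). All OPC libraries lay above all these ESC libraries for 3 of 7 members and 29.6% of all genes. They lay below for 1 of 7 members and 35.4% of all genes.

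The 3 members called higher and 2 called lower, of 7, stand beside 35.6% and 41.9% of all genes, and the 4 past the 2-fold threshold beside 65.8%. Scaling by DESeq2's size factors in place of TMM moved the median log2 difference of all genes by 0.35 between OPC cells and ESCs, by 0.24 between RA cells and ESCs and by 0.12 between OPC and RA cells. With size factors, Idi1 was at -0.94 (adjusted p = 0.0774), Lss at -0.63 (adjusted p = 0.144) and Sqle at 0.70 (adjusted p = 0.0160) in OPC cells against ESCs, whereas Cyp51, Mvd and Fdps kept their calls. The other cholesterol synthesis enzymes had a median of 0.83 beside one of -0.20 for all genes under TMM, with 7 of 12 higher and 2 lower. Hsd17b7, the sterol ketone reductase, was at 2.02, Mvk, mevalonate kinase, at 1.66 and Sc5d at 1.42, and Dhcr7, singled out after its values were seen, was among the lower genes at -1.58.

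Against RA cells at the same times, Cyp51 (1.38, SE 0.20, edgeR adjusted p = 1.75e-05), Fdps (1.86, SE 0.30, adjusted p = 5.73e-05), Mvd (1.79, SE 0.29, adjusted p = 7.06e-05) and Fdft1 (0.66, SE 0.22, adjusted p = 0.0161) were higher in OPC cells on the log2 scale. These 4 of 7 members stand beside 20.3% of all genes called higher, and the 3 past the 2-fold threshold beside 45%. Mvd lay between 45.9 and 138 CPM in the 4 RA libraries of WT and K27M and Fdps between 6.51 and 20.8 CPM, both below the OPC libraries. All OPC libraries lay above all these RA libraries for 3 of 7 members and 17.6% of all genes. With no filter on low counts the adjusted p of Fdft1 was 0.101. Sqle was at 0.77 (SE 0.34, adjusted p = 0.0615), and its adjusted p was 0.00383 by DESeq2, 0.0134 with size factors, 0.0454 with no filter and 0.0168 with Dox time as a term.

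Against ESCs, RA cells had lower Fdft1, Idi1 and Sqle. Fdft1 ran from 52.0 through a median of 74.2 to 134 CPM in 6 RA libraries and from 128 through 144 to 184 CPM in 12 ESC libraries (log2 difference -0.82, SE 0.16, edgeR adjusted p = 0.000198). Idi1 ran from 0 through 3.44 to 16.6 CPM in RA cells and from 11.03 through 14.4 to 28.3 CPM in ESCs (log2 difference -1.40, SE 0.44, adjusted p = 0.00951). Sqle ran from 40.9 through 92.8 to 208 CPM in RA cells and from 42.5 through 152 to 179 CPM in ESCs (log2 difference -0.59, SE 0.25, adjusted p = 0.0446). Without the shallow ESC library, Fdft1 ran from 128 to 168 CPM, Idi1 from 11.03 to 20.1 CPM and Sqle from 128 to 179 CPM in ESCs. The ranges overlapped with and without it, and the 72 h libraries made up the low end in RA cells. Extraembryonic endoderm markers summed to 292 to 1303 CPM in RA cells and to at most 15.3 CPM in ESCs, fibroblast markers to 44.6 to 380.4 against 1.77 to 14.2 CPM, and neuronal markers to 13.5 to 44.8 against 218 to 651 CPM. Their part in the members' differences was not tested. The 3 of 7 members stand beside 29.6% of all genes called lower, and Idi1, the only one past the 2-fold threshold, beside 45.7%. Without the shallow ESC library Fdft1 was at -0.83, Idi1 at -1.40 and Sqle at -0.66, and Cyp51, at 0.31 (adjusted p = 0.0582) with it, was at 0.34 (adjusted p = 0.0216). With size factors Sqle was at -0.39 (adjusted p = 0.122), Mvd at 0.76 (adjusted p = 0.00772) and Cyp51 at 0.56 (adjusted p = 0.00227).

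Whether the K27M difference itself depended on cell state was tested as an interaction over the OPC and ESC libraries of 24 and 72 h. Fdps had the lowest adjusted p, 0.194, with a difference of differences of 1.20 (SE 0.50), followed by Mvd at 0.91 (SE 0.49, adjusted p = 0.370). By edgeR 0 of 7 members passed, beside 6.52% of all genes. At an unadjusted p under 0.05 there were 1 of 7 members and 18% of all genes. The rise of these genes with K27M in OPC cells and its absence from the calls in ESCs is therefore not shown to be a difference between the states. With the spread of RA cells in the fit, the test cannot show that there is none either.

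**Figure D4:**
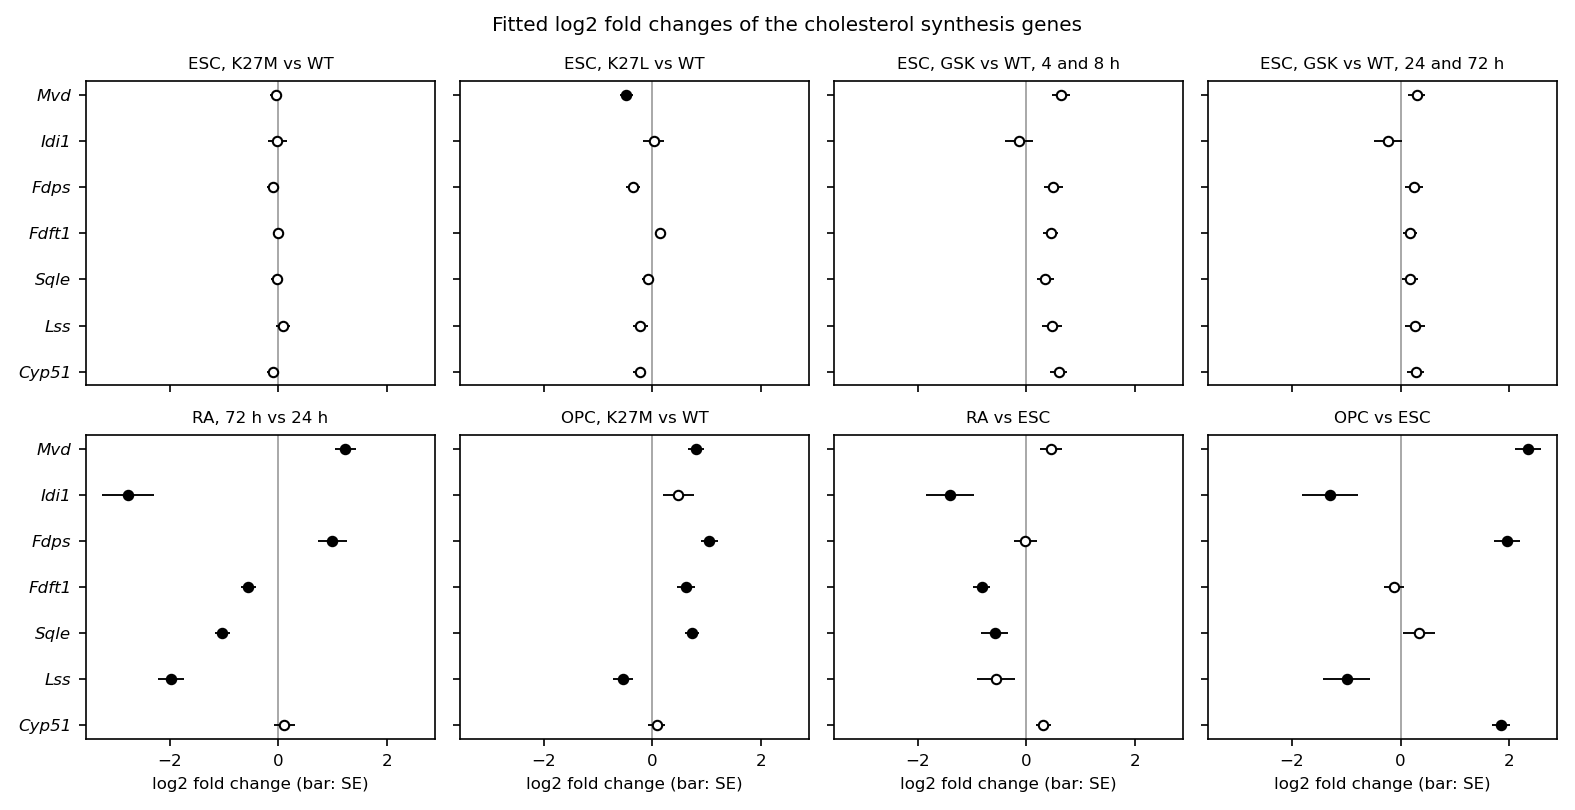
Fitted log2 differences of the 7 genes in 8 comparisons. Each point is 1 gene, the horizontal axis is the log2 difference, bars are SE, and filled points passed an adjusted p of 0.05 by edgeR. Points lie near 0 for K27M in ESCs, right of 0 for 6 genes with GSK, and on both sides of 0 in the comparisons of time and cell state.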

How the data were processed

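Polyadenylated RNA was sequenced from 42 mouse libraries (32 of ESCs, 6 of RA cells and 4 of OPC cells). The authors used STAR 2.7.1 with the mm9 genome, and the deposited values are unnormalized read counts for each gene. The counting tool and its annotation are not given in the sources used here, and libraries were made with a 3′ or a whole-transcript kit, not stated per library. Replicates of ESCs were made weeks apart. By the correlation of their replicate differences over 8398 genes (0.61 to 0.72 at the 4 times), replicate numbers pair WT and K27M, but not WT with K27L or GSK. The members and lists were chosen with earlier results of these data known.

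The identifiers of 32589 of 55471 genes were matched to the NCBIM37 annotation and held 98.2% of counts. Chromosome 8 (5.85% of counts) was left out, as in the study's methods, and Mvd, Sc4mol and Mbtps1 were tested in a fit that kept it. Counts were tested with edgeR 4.0.16 (R 4.3.3, filterByExpr, TMM, quasi-likelihood F test, Benjamini-Hochberg adjustment over all genes tested). In ESCs the fit had a mean for each group (WT, K27M, K27L or GSK) and time. The other fits had a mean for each line in RA and OPC cells, and for each state and line between states. The study's call, an adjusted p under 0.05 with a fold above 2 or below 0.5, was counted beside the adjusted p alone. The text names the members, at most the 4 genes of lowest adjusted p among those passing in each list and comparison, and genes of the 10 most like the members' mean standardized log2(CPM + 0.5), with some genes that met the rule not reported here. Named outside this rule, and stated as such, are the genes singled out in the text, markers and list totals. Copies were found with minimap2 2.31-r1302. The script was tested on simulated data. Alternatives were DESeq2 1.42.0, its size factors, no filter on low counts, blocks, a fit of only the libraries compared, and leaving out each library. ChIP-seq and human samples were not analysed here.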

Additional observations from a re-analysis of the deposited data

Results flagged for a closer look

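Among the 28 groups of 8 ESC libraries tested for a sample far from the others (7 genes in WT, K27M, K27L and GSK), 4 had one, and chance gives about 1 in 20. All 4 were the same library, K27L at 72 h, replicate 2, with 68378 counts in all. Mvd was at 14.2 CPM there against 41.9 to 64.0 CPM in the other 7 K27L libraries. Fdps was listed at 0 CPM against 9.92 to 13.7 CPM, Sqle stood at 42.5 CPM against 128 to 198 CPM, and Lss at 28.3 CPM against 65.2 to 91.5 CPM.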

How the results depend on the processing

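Outside the fits that leave out a library, 949 of the members' values under the alternatives kept their side of the threshold, 14 came past it, 10 fell short of it and 0 that had been called changed sign. Between K27L and WT in ESCs, the count of members called was 1, and it was 0 with only the libraries compared and 2 with a crossed replicate block. Between 72 and 4 h in ESCs it was 2, and 0 with no filter on low counts. Leaving out each library in turn (70 fits) gave 0 to 3 members between 72 and 4 h in ESCs, 0 to 1 for K27L at 4 and 8 h, 3 to 5 between OPC cells and ESCs, and 2 to 6 between RA cells and ESCs. The main fits of these comparisons called 25.4%, 3.51%, 77.5% and 62.8% of all genes, in the same order. Idi1 between OPC and RA cells ranged from -0.74 to 3.92 in the fits that left out a library. The highest came without RA WT at 24 h, where the lone WT library left had Idi1 at 0. Lss between OPC cells and ESCs lost its call in 9 of 12 fits, Idi1 in 4 of 12, Sqle between RA cells and ESCs in 13 of 18, Fdft1 between OPC and RA cells in 4 of 8, and Fdft1 and Cyp51 between 72 and 4 h in ESCs in 4 of 16 each. In fits that left 1 library in a group, that library was assumed to vary like the others. The cause of these changes was not tested.

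Counts of all genes called moved by more than 1.5 times in several comparisons. For K27M in ESCs, 2 genes became 7 by DESeq2, 425 with no filter, 32 with a replicate block, 0 with only the libraries compared and 0 to 326 with a library left out. For K27L, 1141 became 250 to 1703 with a library left out. For GSK at 4 and 8 h, 0 became 139 with no filter and 0 to 3 with a library left out, and for K27L in RA cells 0 became 7 with no filter. Between 72 and 4 h in ESCs, 3565 became 1457 to 4318, and the interaction of OPC cells and ESCs went from 1032 to 462 to 969. The correlation of replicate differences with those of WT was -0.71 to 0.26 for K27L and -0.46 to 0.59 for GSK. Replicate numbers therefore do not pair K27L or GSK with WT. The replicate block changed no member's call. The crossed pairing, added after seeing the data, gave 2443 genes for K27L and 2 for GSK.

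RA and OPC cells had 2 libraries a line, with the Dox times pooled, so their spread includes that of time, and Idi1 and Fdps rest on few counts in the shallow libraries.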
